A study of Mus musculus with 6 samples.

Results

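The genes described here are 9 endothelial junction genes, Cldn5, Ocln, Tjp1, Cdh5, Pecam1, Esam, F11r, Jam2 and Cgnl1, listed by name irrespective of their values, out of the 20822 genes in a table of Drop-seq counts from mouse retina. Drop-seq captures single cells in droplets and counts RNA molecules by unique molecular identifiers (UMIs), read from the 3′ ends of transcripts. Retinas were taken at postnatal day 14 of oxygen-induced retinopathy (OIR), a model in which pups breathe 75% oxygen from day 7 to day 12 and retinal vessels first regress and then regrow. The 3 replicates labelled eNOS+/+ came from C57BL/6J mice and the 3 labelled eNOS-/- from mice homozygous for a disrupted Nos3, the gene of endothelial nitric oxide synthase, and each replicate pooled 3 to 5 retinas. Pups of both genotypes were kept with CD1 fostering mothers. All 6 suspensions were enriched for endothelial cells (ECs) with beads that carry an antibody against CD31, the product of Pecam1.

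Endothelial cells are held together by tight junctions and adherens junctions. In tight junctions, the membrane proteins claudin-5 and occludin form the seal between neighbouring cells, junctional adhesion molecules lie beside them, and scaffold proteins such as ZO-1 and paracingulin tie them to actin. In adherens junctions, VE-cadherin binds its like on the next cell. In the retina these contacts make up the inner blood-retina barrier, and they are remodelled when vessels sprout.

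The table held 8944 cells, and the authors' annotation placed 5925 of them in 3 EC subtypes (1428 Tip, 3335 Structural and 1162 Proliferative ECs) and the rest in 7 other cell types. The annotation labels the 3335 cells only as ECs, and they are called Structural ECs here after the subtype named in the paper. The paper counts fewer ECs in all than the 5925, and the reason was not tested. Each replicate held 415 to 3710 cells and 617246 to 3350799 UMIs, of which 488367 to 2425603 lay in ECs. Markers of each annotated type but Structural ECs, which had no list of their own, were highest in that type. Examples were 10 of 10 EC markers in ECs, 6 of 6 mural markers in mural cells and 6 of 6 rod markers in rods. Nos3 itself did not separate the genotypes, at 26.5 ± 8.94 counts per 1000000 UMIs (CPM; SD, n = 3) in ECs of eNOS+/+ and 23.3 ± 8.55 in ECs of eNOS-/- replicates, and 3′ UMIs may lie outside the disrupted stretch of the gene, so Nos3 did not check the labels, from which each genotype is taken. The replicate eNOS-/- 3 stood apart, since its ECs held all 6 mural markers at their highest, 2213.5 CPM in sum against 21.6 to 91.1 in the other 5 replicates. Markers of other cells in ECs also set libraries apart, with red cell markers at 24.3 CPM in eNOS+/+ 1 against 2234 to 8529 in the others, and rod markers at 470 CPM in eNOS-/- 2, whose ECs had a median of 418 UMIs, against 49.1 to 166. B cell markers were at 22.8 to 98.2 CPM in ECs of the eNOS+/+ and 121 to 164 of the eNOS-/- replicates. Their part in the results was not tested. The 613 cells of replicate eNOS+/+ 2 carried the name of another library in 1 column of the annotation, and without this replicate 0 of the 9 genes were called between genotypes in all ECs or in any subtype.

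The promoters of 5 of the 9 genes, the 250 bases before each RefSeq start in GRCm38.p6, were available. Cdh5, Pecam1, Esam and Jam2 had no entry. Those of Cldn5, which was at under 10% of its EC level on average in every other cell type, of Tjp1, which was also found in mural cells, and of F11r, which was also found in immune cells, are printed 5′ to 3′ on the strand of the gene, with every GGGCGG, the letters of a GC box, in capitals in either orientation (CCGCCC is its reverse complement). They lie at chr16:18776597-18776846 on the plus strand for Cldn5, chr7:65371245-65371494 on the minus strand for Tjp1 and chr1:171437311-171437560 on the plus strand for F11r. The Tjp1 window lies inside the gene as annotated (65296165 to 65527781), before an internal start and not before its outermost 5′ end.
Cldn5: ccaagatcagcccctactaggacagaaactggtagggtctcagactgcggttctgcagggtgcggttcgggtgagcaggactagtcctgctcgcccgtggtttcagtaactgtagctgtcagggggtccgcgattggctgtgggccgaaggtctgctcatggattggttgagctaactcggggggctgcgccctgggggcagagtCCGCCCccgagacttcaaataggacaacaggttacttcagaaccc
Tjp1: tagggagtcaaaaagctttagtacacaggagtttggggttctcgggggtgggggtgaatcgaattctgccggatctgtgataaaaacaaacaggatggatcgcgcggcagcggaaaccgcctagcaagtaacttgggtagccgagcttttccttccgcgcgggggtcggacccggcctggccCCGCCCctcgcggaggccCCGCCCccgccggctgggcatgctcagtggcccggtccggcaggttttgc
F11r: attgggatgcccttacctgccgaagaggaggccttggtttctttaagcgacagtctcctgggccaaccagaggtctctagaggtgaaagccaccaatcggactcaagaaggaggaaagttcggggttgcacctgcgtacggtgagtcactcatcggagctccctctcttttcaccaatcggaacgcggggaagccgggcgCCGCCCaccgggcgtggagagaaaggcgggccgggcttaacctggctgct
GGGCGG was found 1 or 2 times in each of the 6 windows of these 5 genes (Ocln has 2 starts, and Cgnl1 is the fifth gene), whereas 32.7% of the 32851 mouse promoter windows held it. AGGAAG, 1 longer form of the core GGAA that ETS factors bind, was found in 0 of the 6 windows and in 29.5% of all windows. The core GGAA itself was not counted, and it does occur in the printed windows of Tjp1 and F11r. TATAAA was found in 0 of 6 windows and in 12.4% of all windows. The GC content was 59.6% for Cldn5, 63.2% for Tjp1, 60% for F11r and 70.8% for Cgnl1, against a median of 52.4% over all windows. These are matches of letters and do not show binding.

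Across cell types, UMIs were summed per replicate and cell type and given as CPM, for sums of at least 10 cells. Of the 9 genes, 8 had their highest mean in an EC subtype, where 27.3% of the 4124 genes compared had theirs. Jam2 was the exception, with its highest mean in rods, and in drawn-down cells F11r also had its highest mean outside ECs, in immune cells. Cell types were defined by the authors from these same UMIs, and ECs were named by Pecam1 and Cldn5, so these levels are a description and were not tested between cell types. Shares of cells with a UMI are given at 1 depth, for which 500 UMIs were drawn at random from each cell that had as many. Their 95% intervals are by the Wilson method, hold counting error alone and take each listed barcode as a separate cell.

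**Figure D1:**
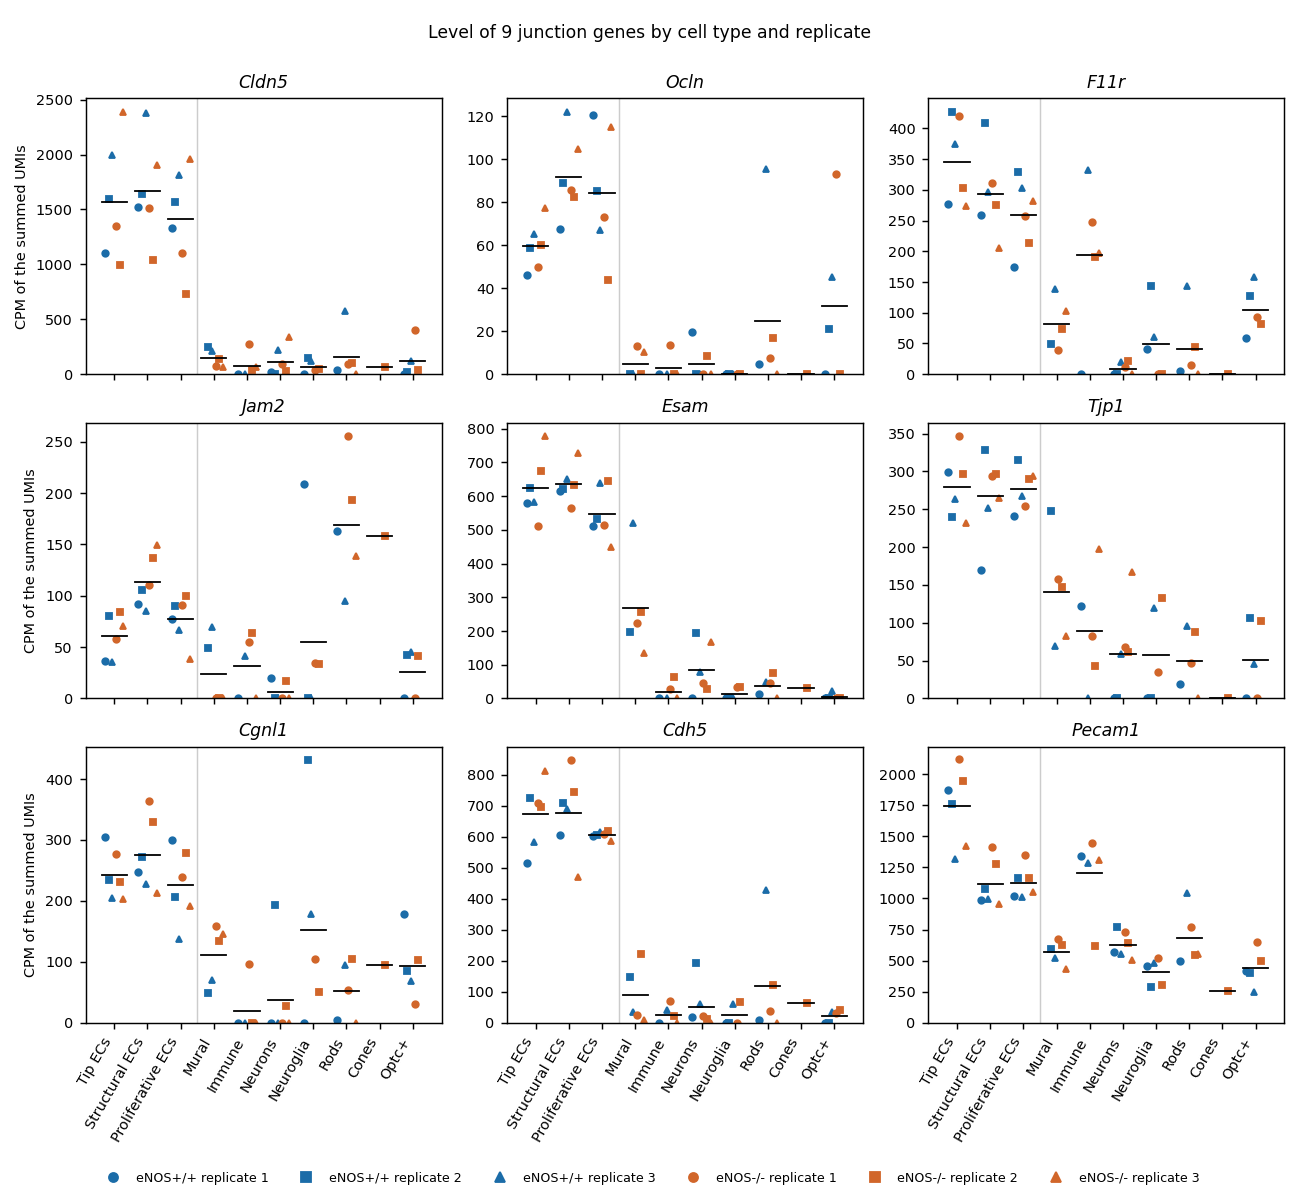
Level of each gene (vertical axis, CPM of the summed UMIs, from 0 and on a scale of its own in each panel) in 10 cell types, with 1 point per replicate of at least 10 cells and a bar at their mean. The 3 EC subtypes are left of the grey line. Jam2 is highest in rods, and Pecam1 lies between 253 and 1201 CPM on average in the other types.

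Cldn5 (chromosome 16, 18776847 to 18778262 in GRCm38) encodes claudin-5, the main claudin of retinal and brain vessels. Over the 6 replicates its level in all ECs was 949 at the lowest, 1482 at the median and 2166 CPM at the highest. In the other cell types its mean was 63.3 to 161 CPM, or 4.46% to 9.63% of the EC level of the same replicate. The drop from Proliferative ECs (1417 ± 459 CPM, SD, n = 6), the lowest of the EC subtypes, to rods (161 ± 234, n = 5), the highest of the others, exceeded the sum of their SDs, while the 3 EC subtypes did not differ beyond theirs. After drawing down, 45.5% of ECs (43.9 to 47.2) had a Cldn5 UMI and 3.09% of rods (1.81 to 5.21). The EC share ran from 34.6% in eNOS-/- 2 to 62.1% in eNOS+/+ 3, a spread that the interval over pooled cells does not hold.

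Ocln (chromosome 13, 100496507 to 100552718) encodes occludin, a tight junction protein of the MARVEL family. It gave 640 UMIs in ECs, and its level there was 66.4 at the lowest, 77.2 at the median and 98.3 CPM at the highest. In neuroglia, 0 UMIs were found in 184 cells, and in mural, immune and neuronal cells its mean was 2.76 to 4.71 CPM. In Optc+ cells, named for the marker opticin, 8 UMIs lay in 8 of 157 cells, and the level ran from 0 to 93.2 CPM among replicates. The step from Tip ECs (59.5 ± 11.1 CPM, n = 6), the lowest of the EC subtypes, to Optc+ cells (31.9 ± 39.0, n = 5) was within the sum of their SDs.

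The junctional adhesion molecules, immunoglobulin-like proteins of the cell border, differed from each other in where else they were found. F11r (chromosome 1, 171437535 to 171464603) encodes JAM-A, which leukocytes also carry. In immune cells it was at 194 ± 122 CPM (SD, n = 5), or 67.0% ± 39.3 of the EC level of the same replicate, and after drawing down 13.2% of immune cells (8.14 to 20.6) and 14.1% of ECs (12.97 to 15.3) had a UMI. In neurons that share was 0.765% (0.261 to 2.23). Esam (chromosome 9, 37528078 to 37538319), an adhesion molecule of ECs and platelets, was at 43.4% ± 23.7 of its EC level in mural cells (n = 5) and at 0.722% to 13.7% in the 6 other types. Of 147 drawn-down mural cells, 21 had an Esam UMI (14.3%, 9.54 to 20.9), and 1 of these 21 also had a UMI of Cldn5 or Cdh5.

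Jam2 (chromosome 16, 84774123 to 84825928) encodes JAM-B, whose partner JAM-C is the product of Jam3. In rods it was at 163 CPM in eNOS+/+ 1, 95.2 in eNOS+/+ 3, 256 in eNOS-/- 1, 194 in eNOS-/- 2 and 139 in eNOS-/- 3, and the ECs of these replicates were at 74.0, 67.0, 93.7, 112 and 109 CPM. The rod level was the higher in 5 of 5 replicates, at 128% to 273% of the EC level. The step in mean from rods (169 ± 60.2 CPM, n = 5) to Structural ECs (113 ± 25.0, n = 6) was within the sum of their SDs. The rod level rests on 126 UMIs in 1508 rods, and in replicates eNOS+/+ 3 and eNOS-/- 3 on 2 and 1 UMIs. The share of drawn-down cells with a Jam2 UMI was 5.94% in rods (4.05 to 8.62), 3.61% in ECs (3.05 to 4.28) and 0.510% in neurons (0.140 to 1.84). Cones reached 10 cells in 1 replicate, where Jam2 was at 158 CPM. Rods with a Jam2 UMI held a UMI of Cldn5 or Cdh5 in 2 of 25 drawn-down cells (8%, 2.22 to 25.0) and rods without one in 19 of 396 (4.80%, 3.09 to 7.37), whereas in Structural ECs with a Jam2 UMI it was 44 of 69 (63.8%, 52.0 to 74.1). Most of the 25 rods with a Jam2 UMI thus had no UMI of Cldn5 or Cdh5 at this depth, and some Structural ECs with a Jam2 UMI also had none. The source of the Jam2 molecules in rods was not tested.

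The scaffold genes were less restricted to ECs than Cldn5. Tjp1 (chromosome 7, 65296165 to 65527781) encodes ZO-1, which links claudins and occludin to actin. Its level was 222 at the lowest, 277 at the median and 299 CPM at the highest in all ECs, and in mural cells it was at 49.1% ± 22.2 of the EC level (n = 5). Cgnl1 (chromosome 9, 71626509 to 71771602) encodes paracingulin, a cytoplasmic plaque protein of tight and adherens junctions. It was at 206, 257 and 309 CPM at the lowest, median and highest in all ECs, at 44.5% ± 18.6 of the EC level in mural cells, and at 0 to 431 CPM in neuroglia, where 12 UMIs were counted in all. For both genes the 3 EC subtypes did not differ beyond their spread, and in neurons the drawn-down shares were 2.55% (1.39 to 4.63) for Tjp1 and 0.765% (0.261 to 2.23) for Cgnl1, against 12.6% and 11.5% of ECs.

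Cdh5 (chromosome 8, 104101625 to 104144511) encodes VE-cadherin, the cadherin of endothelial adherens junctions. In all ECs it was at 582 to 749 CPM with a median of 662. By subtype it ran from 516 to 814 CPM in Tip, from 471 to 848 in Structural and from 588 to 620 in Proliferative ECs. In the other cell types it averaged 21.2 to 120 CPM. The highest of these, in rods, came from eNOS+/+ 3 at 429 CPM, where 9 UMIs lay in 5 of 56 cells, and the other 4 replicates were at 0 to 122 CPM. After drawing down, 28.2% of ECs (26.7 to 29.7), 2.38% of rods (1.295 to 4.32) and 0 of 114 immune cells (interval up to 3.26%) had a Cdh5 UMI.

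Pecam1 (chromosome 11, 106654217 to 106750628) encodes PECAM-1 or CD31, an adhesion molecule of the lateral border of ECs that platelets and leukocytes also carry. It was found in every annotated cell type. In immune cells its level was 1201 ± 333 CPM (n = 5), 96.2% ± 31.6 of the EC level, and in mural cells, neurons, neuroglia, rods and Optc+ cells it was 31.5% to 54.6% of it. The drawn-down share with a UMI was 47.4% in ECs (45.8 to 49.1), 41.2% in immune cells (32.6 to 50.4), 30.6% in neurons (26.3 to 35.3) and 22.3% in rods (18.6 to 26.5). In neurons with a Pecam1 UMI, 4 of 120 (3.33%, 1.304 to 8.26) also had one of Cldn5 or Cdh5, near the 7 of 272 (2.57%, 1.25 to 5.22) of the other neurons. In mural cells with a Pecam1 UMI it was 4 of 31 (12.9%, 5.13 to 28.9), against 4 of 116 (3.45%, 1.35 to 8.53) of those without. All cells had passed the CD31 beads, and the part of that step in these levels was not tested.

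**Figure D2:**
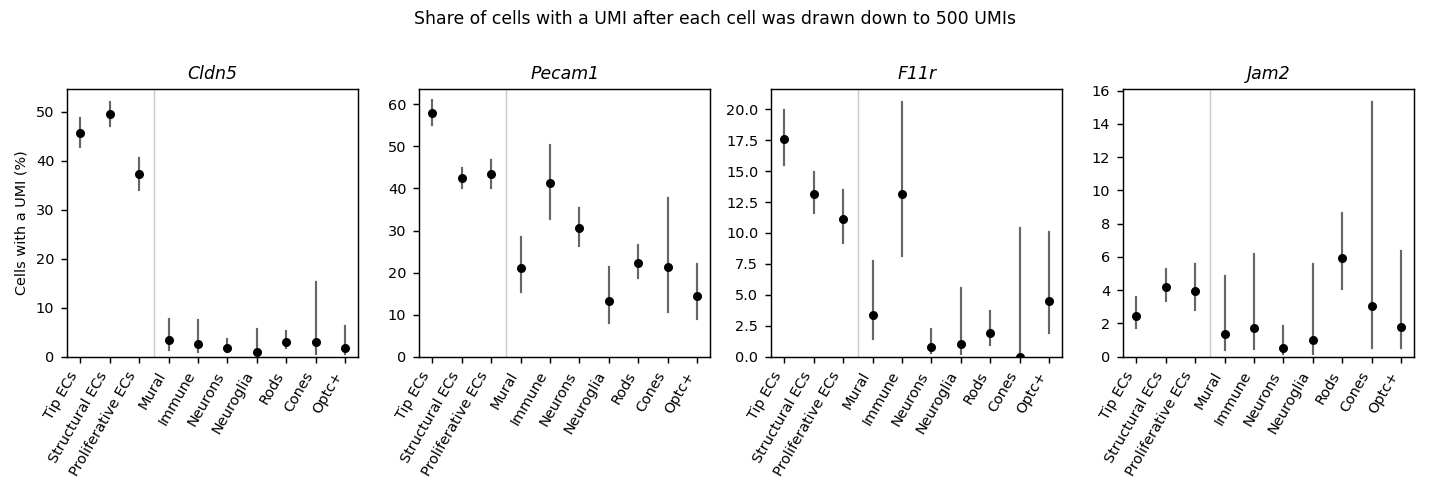
Percent of cells with at least 1 UMI of Cldn5, Pecam1, F11r or Jam2 (vertical axis, from 0) in each of 10 cell types at 500 UMIs per cell, with 95% Wilson intervals. Cldn5 falls from 37.2% to 49.5% in the EC subtypes to 1.02% to 3.40% elsewhere, whereas Jam2 is at 5.94% in rods and 2.47% to 4.19% in the EC subtypes.

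Per cell, an EC held UMIs of few of these genes at this depth. After drawing down, Tip ECs had UMIs of 2.01 of the 9 genes on average, Structural ECs of 1.92 and Proliferative ECs of 1.72, against 0.255 in neuroglia to 0.667 in immune cells. At least 1 of the 9 was found in 89.0% of ECs and at least 5 in 1.72%.

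Among the EC subtypes, Tip ECs lead sprouts, Structural ECs form the standing vessel wall and Proliferative ECs divide. The ratio of the level in each subtype to that in Structural ECs was taken within each replicate. Pecam1 and F11r were higher in Tip than in Structural ECs in 6 of 6 replicates, and Ocln and Jam2 were lower in 6 of 6. Over the 6852 genes with a mean of at least 20 CPM in ECs, 8.22% were higher and 9.73% lower in 6 of 6. The subtypes were clustered from the same UMIs, so these ratios are a description with no test.

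Pecam1 stood at 1317, 1817 and 2124 CPM (lowest, median and highest replicate) in Tip ECs and at 953, 1037 and 1417 CPM in Structural ECs. The ratio was 1.55 on average (geometric mean) and 1.32 to 1.90 by replicate. It was also found in more cells, in 58.0% of drawn-down Tip ECs (55.1 to 60.9) and in 42.4% of Structural ECs (40.1 to 44.8). F11r was at 274, 339 and 427 CPM in Tip ECs and at 206, 286 and 409 CPM in Structural ECs, with a ratio of 1.19 on average and 1.04 to 1.35 by replicate. With 1 cell kept per family of near-identical barcodes, which dropped 2044 of the 8944 cells, F11r was higher in 5 of 6 replicates.

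Jam2 went the other way. It was at 35.8, 64.0 and 83.8 CPM in Tip ECs and at 85.7, 108 and 149 CPM in Structural ECs, and every Structural value lay above every Tip value. The ratio was 0.517 on average, from 0.399 to 0.761. Ocln was at 46.1, 59.4 and 77.1 CPM in Tip ECs and at 67.4, 87.3 and 122 CPM in Structural ECs, a ratio of 0.650 on average and of 0.534 to 0.737 by replicate, and in drawn-down cells it was lower in 5 of 6. Tip ECs thus had more UMIs of the border molecules Pecam1 and F11r and fewer of occludin and JAM-B, and Cldn5, Tjp1, Cdh5, Esam and Cgnl1 had ratios on both sides of 1.

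In Proliferative against Structural ECs only Jam2 kept 1 direction with all cells at full depth. It was lower in 6 of 6 replicates, with a ratio of 0.665 on average and of 0.257 to 0.855, and the lowest ratio came from eNOS-/- 3, which had 35 Proliferative ECs. Over all 6852 genes 7.18% were lower and 7.98% higher in 6 of 6. The direction of Jam2 did not hold with 1 cell per barcode family or in drawn-down cells, where it was lower in 4 of 6 in each. Cldn5 was lower in 5 of 6 with all cells and in 4 of 6 with 1 cell per barcode family. It was lower in 6 of 6 in drawn-down cells (ratio 0.613 to 0.883) and with cells of at least 500 UMIs (0.641 to 0.999). The mural markers in Structural ECs of eNOS-/- 3 summed to 3823 CPM, and without that replicate Cldn5 and Cdh5 were also lower in 5 of 5.

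**Figure D3:**
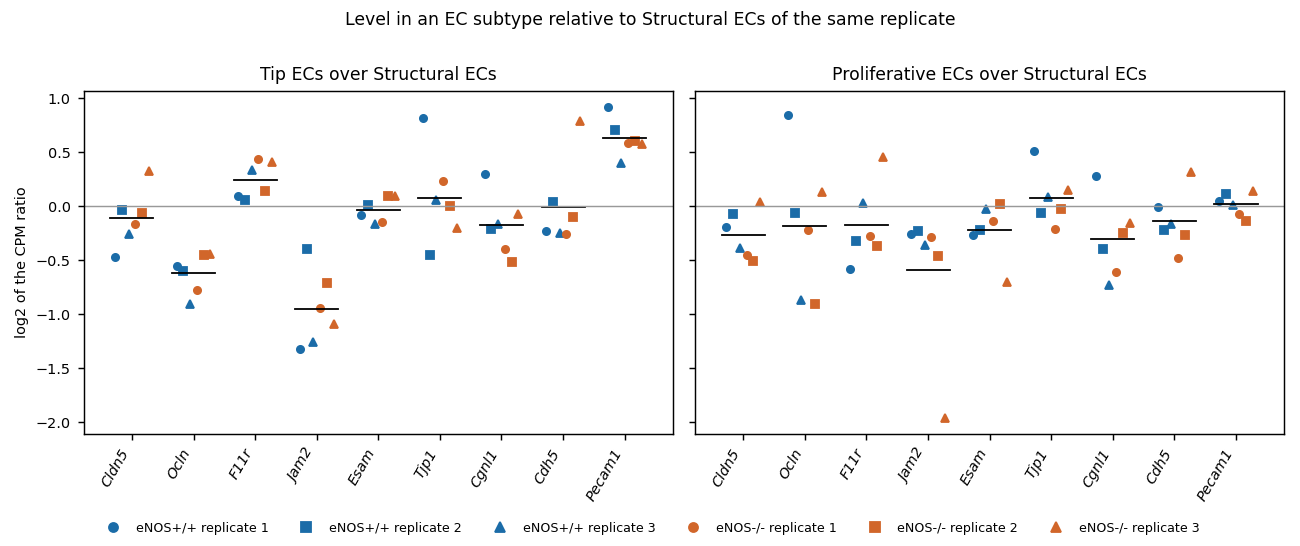
log2 of the ratio of the level in Tip ECs (left) or Proliferative ECs (right) to that in Structural ECs of the same replicate, with 1 point per replicate and a bar at the mean. In Tip ECs the 6 points of Pecam1 and F11r lie above 0 and those of Ocln and Jam2 below it.

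Between genotypes, the comparison was of ECs from replicates labelled eNOS-/- with those labelled eNOS+/+. None of the 9 genes passed the test in ECs. With edgeR's quasi-likelihood test on the summed UMIs and Benjamini-Hochberg adjustment over all genes tested, 0 of 9 were called in all ECs, where 0.0211% of 9483 genes were called. It was also 0 of 9 in Tip ECs (0.0181% of 5510 genes), in Structural ECs (0.0264% of 7577) and in Proliferative ECs (0.0217% of 4607). All 9 passed the filter on low counts in each fit, and DESeq2 also called 0 in each. At an unadjusted p under 0.05 it was 0 of 9 in each fit, beside 5.78% of all genes in all ECs, 4.95% in Tip, 5.52% in Structural and 6.38% in Proliferative ECs. The models therefore bound the differences, and the 95% intervals of the log2 fold change are given for that reason. The log2 fold changes are estimates of edgeR from scaled sums and can differ from the ratio of the mean CPM values.

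With all 6 replicates, Jam2 had the largest difference of the 9 in all ECs. By replicate it was at 74.0, 92.9 and 67.0 CPM in eNOS+/+ and at 93.7, 112 and 109 CPM in eNOS-/-. The genotypes did not overlap, as was the case for 10.4% of all genes tested. The log2 fold change (eNOS-/- over eNOS+/+) was 0.43, with an interval of -0.03 to 0.89 (edgeR adjusted p = 0.877). In Structural ECs the genotypes did not overlap either, at 92.3, 105 and 85.7 against 111, 137 and 149 CPM, with a log2 fold change of 0.47 (-0.07 to 1.00, edgeR adjusted p = 0.895), where 10.5% of all genes did not overlap.

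Cldn5 had the widest spread among replicates. It was at 1362, 1603 and 2166 CPM in eNOS+/+ ECs and at 1359, 949 and 2056 CPM in eNOS-/- ECs, so that the highest eNOS-/- value lay close to the highest eNOS+/+ value. The log2 fold change was -0.24 with an interval of -0.85 to 0.37 (edgeR adjusted p = 0.969). This value moved with single libraries. Without eNOS-/- 3, the replicate with the mural markers, it was -0.59 (-1.15 to -0.03, edgeR adjusted p = 0.435) in all ECs and -0.77 (-1.26 to -0.28, edgeR adjusted p = 0.116) in Proliferative ECs, where it was -0.36 with that replicate. When ECs with a UMI of a mural marker were left out of every replicate instead, which took 76 of the 288 ECs of eNOS-/- 3, the log2 fold change in all ECs was -0.17 (-0.81 to 0.46), close to the value with all cells. It was -0.38 without eNOS+/+ 1, -0.01 without eNOS+/+ 3 and -0.003 without eNOS-/- 2.

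The other genes had smaller differences, with intervals that reached at most 0.61 on the log2 scale in either direction for all but Ocln and F11r. For Cdh5 the log2 fold change in all ECs was 0.09 (-0.32 to 0.50), for Esam 0.06 (-0.36 to 0.48), for Tjp1 0.12 (-0.28 to 0.53), for Pecam1 0.17 (-0.26 to 0.61) and for Cgnl1 0.17 (-0.27 to 0.61). For F11r it was -0.20 (-0.65 to 0.25) and for Ocln -0.12 (-0.62 to 0.37). Their edgeR adjusted p ranged from 0.964 to 0.988. The upper bounds of Cdh5, Esam and Tjp1 correspond to 1.42-, 1.39- and 1.44-fold higher levels in eNOS-/- with all replicates, and their lower bounds to 0.803-, 0.780- and 0.824-fold. Without eNOS-/- 3, which held 2213.5 CPM of mural markers, Esam moved to -0.03, Ocln to -0.28, F11r to -0.13, Cdh5 to 0.17 (-0.26 to 0.61), Pecam1 to 0.29 and Cgnl1 to 0.30 in all ECs. With ECs that held a mural marker UMI left out of every replicate, Esam was at 0.13, Ocln at -0.002, F11r at -0.20, Cdh5 at 0.11, Pecam1 at 0.16 and Cgnl1 at 0.18. In Structural ECs Cgnl1 was at 0.29 with all replicates and at 0.45 (0.01 to 0.89, edgeR adjusted p = 0.503) without eNOS-/- 3.

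**Figure D4:**
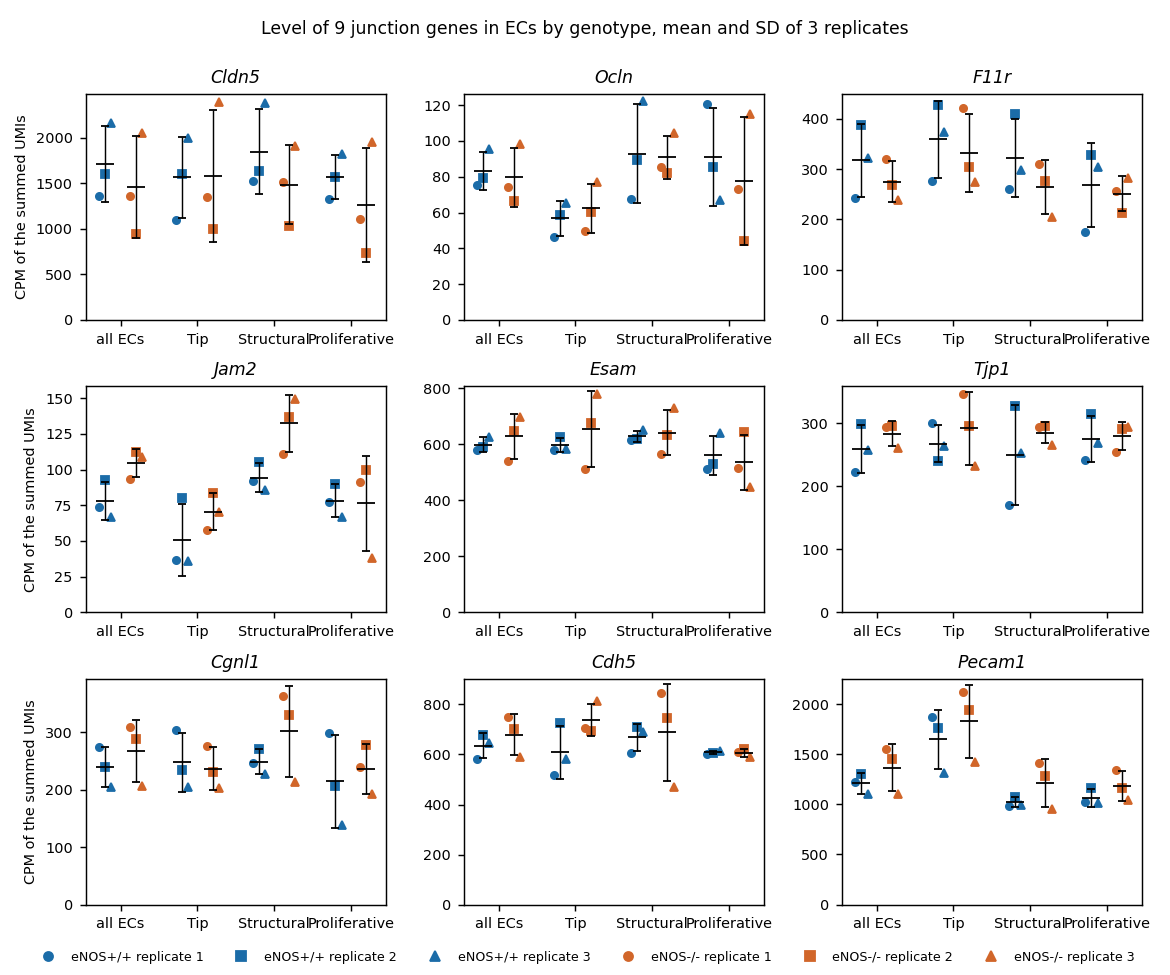
Level of each gene (CPM of the summed UMIs, from 0) in all ECs and in each EC subtype, with 1 point per replicate and the mean and SD of the 3 replicates of each genotype in black. The genotypes overlap in every panel and group but for Jam2 in all ECs and in Structural ECs.

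In Tip and Proliferative ECs the genotypes overlapped for 9 of 9 genes, where 10.3% and 10.8% of all genes did not overlap. The largest log2 fold change of the 9 in Tip ECs was that of Jam2 at 0.58 (-0.21 to 1.37), beside mean levels of 50.9 ± 25.3 CPM (SD, n = 3) in eNOS+/+ and 70.6 ± 13.01 CPM in eNOS-/-. It was 0.96 without eNOS+/+ 2, 0.34 without eNOS+/+ 3 and 0.37 without eNOS-/- 2. In Proliferative ECs it was that of Ocln at -0.43 (-1.21 to 0.35), beside mean levels of 91.1 ± 27.3 CPM in eNOS+/+ and 77.4 ± 35.8 CPM in eNOS-/-, based on 145 UMIs in all. It was -0.20 without eNOS+/+ 1 and -0.09 without eNOS-/- 2, and without eNOS-/- 3 the largest was that of Cldn5. The median over the 9 genes was 0.09 in all ECs, 0.13 in Tip, 0.03 in Structural and 0.01 in Proliferative ECs, beside medians of 0.01, 0.005, 0.01 and 0.02 over all genes tested. In Tip ECs the unadjusted edgeR p of the 9 genes was 0.145 at the lowest.

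Whether the genotype difference varied among subtypes was tested in 1 model over the 18 sums with a term for each library. Of the 9 genes, 0 were called (0% of 7019 genes were). By edgeR the unadjusted p was 0.0388 for Cldn5, whose log2 fold change was 0.30 higher in Tip than in Structural ECs (adjusted p above 0.999), and 0.307 or more for the other 8. Unadjusted p was under 0.05 for 3.43% of all genes.

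**Figure D5:**
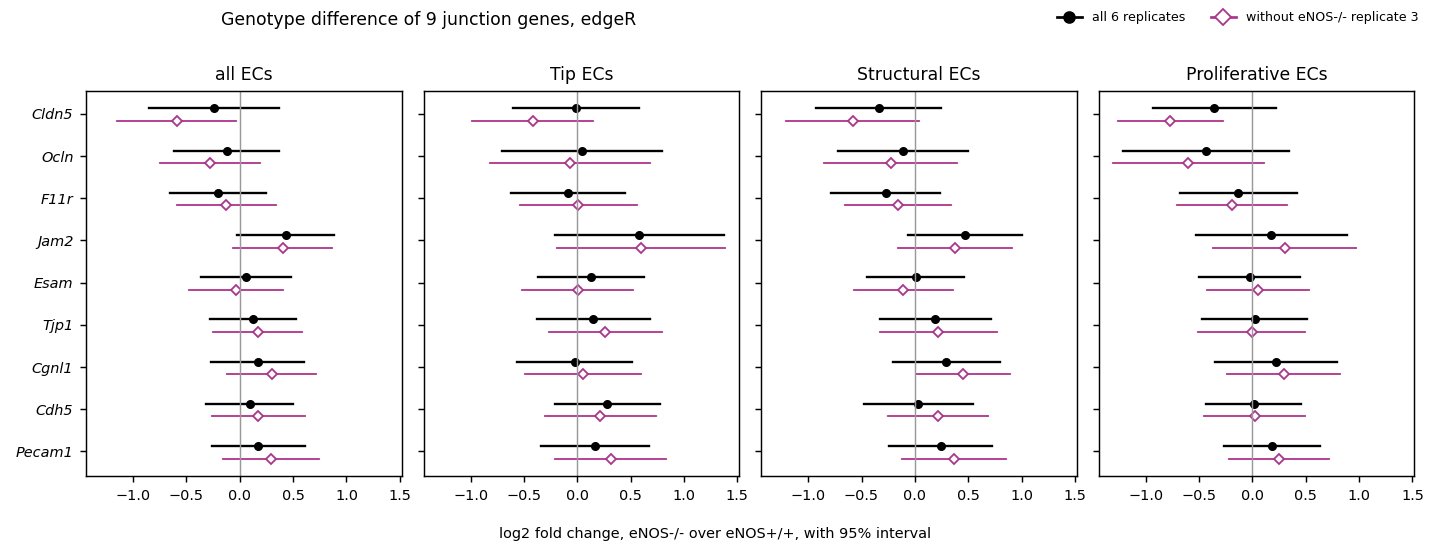
log2 fold change of each gene (horizontal axis, eNOS-/- over eNOS+/+) with its 95% interval in all ECs and in the 3 subtypes, from edgeR with all 6 replicates (black) and without eNOS-/- replicate 3 (open diamonds). The black intervals all include 0, and those without that replicate leave out 0 for Cldn5 in all ECs and in Proliferative ECs and for Cgnl1 in Structural ECs.

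Shares of drawn-down cells with a UMI were tested by exact two-sided permutation of the genotypes, in which 3 against 3 replicates cannot give a p below 0.1. Only cells of at least 500 UMIs enter these shares, and the loss was unequal. In eNOS-/- 2 it left 1023 of 2266 ECs, a smaller part than in any other replicate, with 751 of 1092 in eNOS+/+ 3. In all ECs the share with a Tjp1 UMI was 10.9%, 9.39% and 11.9% in eNOS+/+ and 13.3%, 14.2% and 12.5% in eNOS-/- replicates (exact p = 0.1). In Structural ECs it was 7.41%, 9.29% and 9.46% against 14.5%, 13.5% and 14.6% (exact p = 0.1). In both the genotypes did not overlap, but over all genes 11% did not overlap in all ECs and 10.8% in Structural ECs, and the CPM of Tjp1 did overlap, at 222 to 299 against 260 to 295 in all ECs. The Jam2 share in Tip ECs was 1.03%, 1.80% and 1.60% against 1.83%, 3.64% and 5.26% (exact p = 0.1), again with 10.7% of all genes not overlapping. These shares rest on 27 of 1091 drawn-down Tip ECs, in replicates of 57 to 357 cells. The nearest values of the genotypes, 1.80% and 1.83%, were almost equal. For the other 33 of 36 combinations of gene and cell group the genotypes overlapped, and the exact p was 0.2 or more.

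Outside ECs, neurons alone had at least 10 cells in every replicate, and Pecam1 alone of the 9 genes passed the filter there. It was at 633 ± 121 CPM (SD, n = 3) in eNOS+/+ and 624 ± 114 CPM in eNOS-/- neurons, with a log2 fold change of 0.16 (-0.77 to 1.08, edgeR adjusted p above 0.999), and 0% of the 982 genes tested were called (41 genes, or 4.18%, had an unadjusted p under 0.05). The mean CPM of Pecam1 was thus slightly lower in eNOS-/- neurons, while the edgeR log2 fold change lay above 0 with an interval across 0.

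Other junction genes were counted from lists of partners. Of 17 tight junction partners 9 were tested in all ECs, of 15 adherens junction partners 14, and of 7 genes of the lateral border and gap junctions 5. In each list and in each of the 4 EC fits 0 genes were called higher and 0 lower. By median log2 fold change the lists were at 0.06, -0.16 and -0.06 in all ECs, against 0.01 over all genes tested. At an unadjusted p under 0.05 there were 1, 2 and 0 genes in all ECs (3 of 28 tested, beside 5.78% of all genes), 0, 1 and 0 in Tip ECs (1 of 25, beside 4.95%), 1, 3 and 1 in Structural ECs (5 of 26, beside 5.52%) and 0, 2 and 0 in Proliferative ECs (2 of 22, beside 6.38%).

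Of the tight junction partners, those with most UMIs in ECs included Amotl1, an angiomotin-like protein (log2 fold change 0.02 ± 0.20, SE), and Magi3, a membrane-associated scaffold (0.21 ± 0.20). Of the adherens junction partners they were Ptprb, the phosphatase VE-PTP that binds VE-cadherin (0.17 ± 0.21), Cdh2, or N-cadherin (-0.12 ± 0.23), and Ctnna1, or alpha-catenin (0.23 ± 0.20). Of the third list they were Gja1 (connexin 43, 0.15 ± 0.25), Icam2 (-0.06 ± 0.21) and Gja4 (connexin 37, -0.34 ± 0.23). Their edgeR adjusted p in all ECs ranged from 0.908 to 0.996. The genotypes overlapped for each of these 8 genes in all ECs.

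The genes most alike to each of the 9 were found by the correlation of log2(CPM + 10) over the 50 sums of at least 10 cells, among 4124 genes with at least 500 UMIs. The sums share libraries and depth within a replicate, so r is a description. For Cldn5 they were Ramp2 (r = 0.949), AU021092 (0.897) and Ctla2a (0.895), and for Cdh5 Adgrl4 (0.944), Lrp8 (0.921) and Cd34 (0.919). For Esam they were Sema6d (0.870), Adcy4 (0.870) and Vwa1 (0.867), and for Ocln Tdrp (0.864), Srgap1 (0.861) and Tmem88 (0.858). For Tjp1 they were Prex2 (0.837), Lrrc58 (0.822) and Clic4 (0.804), and for Cgnl1 Plec (0.807), Utrn (0.774) and Acot9 (0.750). For F11r they included Rbms1 (0.825) and Foxp1 (0.799). For Pecam1 they were Lcp1 (0.840), the actin bundler L-plastin of leukocytes, Slco2b1 (0.812) and Ptpre (0.792), and for Jam2 Slc31a2 (0.704), Rgs9 (0.695), a regulator of transducin in photoreceptors, and Prkab1 (0.633).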

How the data were processed

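Drop-seq libraries of CD31-enriched cells from 6 replicates were sequenced by the authors, demultiplexed with bcl2fastq per the labels, aligned to GRCm38 with kb-python and handled in Seurat 3. The annotation used for counting is not given in the sources used here. Cells with few genes or a high mitochondrial share were removed, cell types were assigned after integration of replicates and EC subtypes by clustering of ECs without integration, and the deposited table holds UMI counts without normalization. Cell totals equalled those of the deposited annotation in 8944 of 8944 cells. Keeping 1 cell per family of barcodes that shared the first 11 of 12 bases within a replicate dropped 2044 of these cells. Whether the barcodes of a family were separate cells was not tested. Doublets were not called here, 3 barcodes were shared between replicates (0 within a genotype), and between replicates of 1 genotype the chi-square of the counts was 4.09 to 7.47 per gene, where sampling alone gives about 1. Labels tie each replicate to pooled retinas but not to separate litters, so p-values measure the spread between these pools.

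UMIs were summed per replicate and cell type. Genotypes were compared on all genes with edgeR 4.0.16 (filterByExpr, TMM, quasi-likelihood test, adjusted p limit 0.05, intervals from the SE and the total degrees of freedom) in R 4.3.3, and DESeq2 1.42.0 was the alternative tool. Levels, shares and permutation tests were computed in Python 3.11.15 with scipy 1.17.1. Cells of at least 500 UMIs were drawn down to 500, and 0 columns of values were left without a sample. Models were tested on simulated data. The text names the 9 genes, Nos3, the 3 genes of most EC UMIs in each partner list with any that passed a genotype test, and the 3 genes most alike to each of the 9, of which 2 genes are not reported here. The members, lists and rules were chosen with earlier results of these data known. Gene positions come from GENCODE for GRCm38, where 9 of 9 members matched, and promoters from RefSeq.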

Additional observations from a re-analysis of the deposited data

Results flagged for a closer look

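Of 89 sets of 4 to 10 replicate values (1 gene in 1 cell type), 11 had a replicate whose gap to the nearest other exceeded the Dixon limit at 95%. That limit is made for normally distributed values. Where all other replicates are at 0, a replicate with 1 UMI always exceeds it, so the count of 11 cannot be set against a rate by chance. All lay outside ECs, and most rest on few UMIs. In rods of eNOS+/+ replicate 3 (56 cells), Cldn5 was at 571 CPM (12 UMIs in 7 cells, other replicates 0 to 105), Ocln at 95.2 CPM (2 UMIs) and Cdh5 at 429 CPM (9 UMIs in 5 cells). In immune cells of eNOS-/- replicate 1 (65 cells), Cldn5 was at 276 CPM (20 UMIs in 6 cells), Ocln at 13.8 CPM (1 UMI) and Cgnl1 at 96.5 CPM (7 UMIs in 4 cells). Pecam1 in immune cells of eNOS-/- replicate 2 was low, at 616 CPM (29 UMIs in 74 cells), with the other replicates at 1288 to 1448. In neurons of eNOS+/+ replicate 2 (11 cells), Cdh5 and Cgnl1 were each at 193 CPM from 1 UMI. Jam2 was at 209 CPM in neuroglia of eNOS+/+ replicate 1, from 5 UMIs of which 4 lay in 1 cell, and Esam was at 22.6 CPM in Optc+ cells of eNOS+/+ replicate 3 from 2 UMIs. Their cause was not tested.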

How the results depend on the processing

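Of the 531 log2 fold changes by genotype of the 9 genes recomputed under alternatives, 485 kept their sign and stayed short of the limit, 46 changed sign and 0 passed it, with 0.116 as the smallest adjusted p (Cldn5 in Proliferative ECs without eNOS-/- 3). With no filter on low counts Cldn5 was at 0.0112 and Cgnl1 at 0.0216 in Tip ECs. With cells of at least 500 UMIs Ocln was at -0.0307 in Tip and Tjp1 at -0.00568 in Proliferative ECs. With 1 cell per barcode family Cgnl1 was at 0.15 in Tip and Cdh5 at -0.0705 in Proliferative ECs. By DESeq2 Esam was at -0.000695 in Structural ECs, and in 1 fit over the 18 sums Esam was at -0.00190 there and Cdh5 at -0.00692 in Proliferative ECs. Without ECs that held a mural marker UMI, an alternative chosen after seeing the data, Cgnl1 was at 0.0644 in Tip, Ocln at 0.0722 in Structural and Tjp1 at -0.0149 in Proliferative ECs. The cause was not tested.

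Leaving out each replicate in turn gave ranges across 0 in all ECs for Ocln (-0.28 to 0.0174) and Esam (-0.0346 to 0.18). In Tip ECs it did so for Cldn5 (-0.42 to 0.24), Ocln (-0.0732 to 0.22), F11r (-0.29 to 0.0192) and Cgnl1 (-0.15 to 0.16), and in Structural ECs for Ocln (-0.31 to 0.20), Tjp1 (-0.0238 to 0.40), Cdh5 (-0.13 to 0.22) and Esam (-0.11 to 0.10). In Proliferative ECs it did so for Tjp1 (-0.0640 to 0.10), Cdh5 (-0.0163 to 0.0223), Esam (-0.20 to 0.0809), F11r (-0.36 to 0.00541), Jam2 (-0.0101 to 0.30) and Cgnl1 (-0.0277 to 0.54).

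The count of the 9 genes with 1 direction in every replicate in Proliferative over Structural ECs was 1, and it was 3 with cells of at least 500 UMIs, 0 with 1 cell per barcode family and 1 to 3 when a replicate was left out. In Tip over Structural ECs it was 4, and it was 3 with 1 cell per barcode family (without F11r) and in drawn-down cells (without Ocln), and 4 to 5 when a replicate was left out. UMIs pooled over replicates give no count of replicates and were not used for these counts. Over all genes, the number called in all ECs was 2, 84 with no filter on low counts and 0 to 78 without 1 replicate (78 without eNOS-/- 3). In Tip ECs it was 1, 8 with no filter and 0 to 25. In Structural ECs it was 2, 74 with no filter and 0 to 28, and in Proliferative ECs it was 1, 10 with no filter, 8 with 1 cell per barcode family and 0 to 73.

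Replicates of the genotypes share a number only. In all ECs the deviations of same-numbered replicates correlated at 0.13, -0.07 and 0.11, so the pairing was not shown. With the replicate number as a block 0 of the 9 genes were called in each fit, Cdh5 in Structural ECs was at -0.00570, and the block moved the calls over all genes to 11 in Structural and 3 in Proliferative ECs.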

Other observations

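Among the partner lists, the genes with an unadjusted p under 0.05 in any of the 4 EC fits all had lower levels in eNOS-/- and none passed adjustment, so these are values and not calls, named after they were seen. Of all genes with such a p, 60.9% were lower in eNOS-/- in all ECs, 63.4% in Tip, 58.4% in Structural and 61.2% in Proliferative ECs. Rasip1, a Rap1 effector of vessel lumen formation, had log2 fold changes of -0.67 in all ECs, -0.81 in Structural and -0.59 in Proliferative ECs (edgeR adjusted p from 0.733 to 0.824). Afdn, or afadin, the link of nectins to actin, was at -0.44 in all ECs, -0.60 in Tip and -0.57 in Proliferative ECs (edgeR adjusted p from 0.721 to 0.904). Lsr, the angulin of tricellular tight junctions, was at -0.67 in all ECs and -0.74 in Structural ECs, and Nectin2, Nectin3 and Gja4 were at -0.83, -0.94 and -0.57 in Structural ECs (edgeR adjusted p from 0.809 to 0.868 for these 4 genes). Over all genes 5.52% had such a p in Structural ECs.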
